A study of Mus musculus with 32 samples.

Results

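Hamp, Hamp2, Hfe, Neo1 and Smad6 are the hepcidin genes and the genes of upstream hepcidin control examined here. They were picked by gene name, and are 5 of the 10055 genes held by the 4 organ tables of the series. The mice were male and either wild type (WT) or deficient in Khk (Khk KO). Khk encodes ketohexokinase, the enzyme that phosphorylates fructose, and the series asked how fructose and this enzyme act on iron balance. The measurement was sequencing of polyadenylated RNA in liver, jejunum, ileum and duodenum, with 4 libraries per organ and genotype, 32 in all. Age, strain, diet and the kind of Khk allele were not given in the sources used here, nor whether each mouse gave all 4 organs or whether the libraries are separate animals. If they are not, the p-values measure only a technical spread.

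Hepcidin is a small peptide hormone made mainly by hepatocytes. It binds the iron exporter ferroportin and causes its breakdown, which lowers the entry of iron from gut and macrophages into plasma. Its gene is switched on by bone morphogenetic protein (BMP) ligands through SMAD proteins and, in inflammation, by interleukin 6 through STAT3. Hamp encodes hepcidin and Hamp2 a close mouse paralog. Hfe encodes a membrane protein, mutated in hereditary haemochromatosis, that signals iron load to Hamp. Neo1 encodes neogenin, a receptor that binds the BMP co-receptor hemojuvelin, and Smad6 encodes an inhibitory SMAD that damps BMP signals.

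A gene entered an organ table if its unadjusted p was below 0.05 in the comparison of genotypes that the authors ran. A gene that is absent from a table therefore has no value here, and no statement on its level can be made. The liver table, with 6375 genes, held Hamp, Hamp2, Hfe and Neo1. The jejunum table, with 2413 genes, held Hamp and Neo1, and the ileum table, with 5187 genes, held Neo1 and Smad6. The duodenum table, with 1567 genes, held none of the 5. Hfe and Hamp2 were thus absent from the 3 intestinal tables, and Smad6 was absent from liver, duodenum and jejunum.

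Reads of the genes in the tables came to between 1722220 and 14331517 per library, which is a lower bound of the depth. Khk itself was lower in every Khk KO library than in every WT library of all 4 organs, at 4.59% to 11.1% of the WT mean. Gene length went along with genotype among the genes of the tables, which were selected for a genotype difference on these same libraries. Such selection can widen the gap between the slopes of the genotypes, so the slopes do not give the length trend over all genes. The slope of a liver library's log2 deviation on log2 gene length was 0.23 to 0.28 in the 4 Khk KO libraries, so long genes were relatively higher there. It was -0.25, -0.30 and -0.51 in WT replicates 4, 2 and 3, and 0.029 in WT replicate 1, which stood apart from the other WT livers. In ileum the slope was 0.18 to 0.21 in Khk KO and -0.065 to -0.36 in WT. Hamp (410 bases) and Hamp2 (583 bases) are short genes, Smad6 (3205 bases) and Hfe (3572 bases) are longer, and Neo1 (8716 bases) is the longest, so each fold change is also given with this length trend taken out. The duodenum libraries bear names from another numbering series than the other organs.

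The promoter windows of Hamp and Hamp2 are shown because the genes are near-copies that differ in a base of the element through which BMP signals act on Hamp. Both windows are the 250 bases before the RefSeq transcription start on the minus strand of build GRCm38.p6, chr7:30944030-30944279 for Hamp and chr7:30924182-30924431 for Hamp2. Capitals mark GGCGCC, the core of a BMP response element, or the bases aligned with it, and a match to TTCNNNGAA, the STAT site. The last 3 bases of the Hamp window lie in the exon that GENCODE annotates. The Hamp2 window lies inside the gene as GENCODE annotates it (30922372 to 30924681) but in no exon, so its place before the start rests on RefSeq.
Hamp: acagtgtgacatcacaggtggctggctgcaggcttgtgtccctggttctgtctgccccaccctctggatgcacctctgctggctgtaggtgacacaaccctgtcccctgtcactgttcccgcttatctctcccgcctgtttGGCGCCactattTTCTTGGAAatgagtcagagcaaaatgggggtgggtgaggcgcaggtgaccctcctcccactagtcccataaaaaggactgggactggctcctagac
Hamp2: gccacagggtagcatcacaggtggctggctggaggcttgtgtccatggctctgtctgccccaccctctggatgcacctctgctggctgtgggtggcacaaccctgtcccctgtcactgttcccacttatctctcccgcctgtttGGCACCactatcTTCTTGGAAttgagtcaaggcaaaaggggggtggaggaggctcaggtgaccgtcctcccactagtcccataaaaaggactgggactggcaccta

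The windows aligned over 247 bases with 227 identical, an identity of 91.9%. In the BMP element they differed by 1 substitution, G145A, with the Hamp base first and positions counted from 1 at the 5′ end of the Hamp window. Hamp held GGCGCC at 109 to 104 bases before its start, where Hamp2 held GGCACC. The STAT match was TTCTTGGAA in both, at 97 to 89 bases before the start of Hamp and 94 to 86 before that of Hamp2. Over the 32851 RefSeq promoter windows of this length, 9.59% held GGCGCC and 7.02% held TTCNNNGAA. The windows of all 5 members were in the table. Neo1 held GGCGCC once, at 28 to 23 bases before its start, while Hfe and Smad6 held neither motif. The E-box CANNTG, a motif present in 66.2% of windows, was found 2 times each in Hamp and Hamp2 and not in the other 3. Its subset CACGTG, in 6.02% of windows, was found in none of the 5. Each of these 4 motifs equals its reverse complement, so both strands were covered.

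In liver, Hamp held 48.8% and Hfe 70.1% of their WT mean in Khk KO, while Neo1 held 186%. Of the 4 members in the liver table, the authors' deposited table called 3 at an adjusted p under 0.05, Hamp and Hfe lower and Neo1 higher. Of the 18225 genes tested in liver, the authors called 23.9%, with 12.5% higher and 11.4% lower in Khk KO. A refit of all genes in the table with edgeR's quasi-likelihood test called 1 of the 4, Hamp, where it called 14.7% of the genes tested (7.19% higher and 7.49% lower). The genotypes did not overlap for 1 of the 4 members, against 65% of the genes in the liver table.

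Hamp (ENSMUSG00000050440, chromosome 7, 30942368 to 30944032, minus strand) held 6297, 10678, 10173 and 10252 normalized counts in Khk KO replicates 1 to 4. The WT livers held 16104, 20690, 21411 and 18476 normalized counts. All 4 Khk KO livers lay below all 4 WT livers, with Khk KO replicate 1 lowest and WT replicate 1 the lowest of its group. The means were 9349.9 ± 2047 in Khk KO and 19170.3 ± 2395 in WT (SD, n = 4), so Khk KO held 48.8% of the WT level. The exact two-sided permutation test gave p = 0.0286, the smallest value for 4 against 4, and is 1 of 8 such tests of members. The log2 fold change in edgeR's quasi-likelihood test was -1.01 ± 0.17 (SE), with a Benjamini-Hochberg adjusted p of 0.0163. It was -0.90 to -1.12 when a library was left out. The edgeR adjusted p was 0.0650 without Khk KO replicate 2 and 0.0529 without WT replicate 4, so the call was lost in both. Those fits called 9 and 14 liver genes in all, against 2675 with the 8 libraries. With the length trend taken out the change was -0.23 ± 0.15 (SE), with an adjusted p of 0.885 in edgeR. The 4 WT livers had the same order in Hamp as in how far their slope on gene length lay below 0, and the 4 Khk KO livers did not.

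On the FPKM scale, which divides by gene length, Hamp stood at 4027 ± 555 in WT liver and 1932 ± 428 in Khk KO (SD, n = 4). The same length divides both genotypes, so this scale does not take out a length trend between them. It ranked 17 by WT FPKM among the 6375 genes of the liver table. Fewer hepatocytes and less Hamp RNA per hepatocyte cannot be told apart in such bulk samples.

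Hamp2 (ENSMUSG00000056978, chromosome 7, 30922372 to 30924681, minus strand), the paralog whose window holds GGCACC, was rare in liver. It held 24.9, 18.1, 57.1 and 11.8 normalized counts in Khk KO replicates 1 to 4 and 53.6, 81.1, 39.3 and 43.7 in WT. Khk KO replicate 3 lay above 3 of the 4 WT livers, so the groups overlapped. The means were 28.0 ± 20.1 in Khk KO and 54.4 ± 18.8 in WT (SD, n = 4), with an exact two-sided permutation p of 0.114. The log2 fold change was -0.95 ± 0.47 (SE) with an adjusted p of 0.225 in edgeR, and the authors' deposited table gave an adjusted p of 0.125. Without Khk KO replicate 3 it was -1.58, with an edgeR adjusted p of 0.0581, and with the length trend taken out it was -0.24.

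Hamp exceeded Hamp2 253 to 1234 times in FPKM in the Khk KO livers, with a median of 599. In the WT livers the ratio ran from 363 to 774, with a median of 514. The ranges overlapped, so the balance of the pair was not separable between genotypes. Some Hamp2 reads can come from Hamp, since 11.2% of the 50-base stretches of Hamp2 transcripts are also in Hamp, while no stretch of 100 bases is. Gm44662 on the other strand covers 15.3% of the Hamp2 exon bases, and the sources do not give a single strand setting, so the Hamp2 counts are uncertain.

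Hfe (ENSMUSG00000006611, chromosome 13, 23702034 to 23710854, minus strand) held 698, 678, 712 and 724 normalized counts in Khk KO livers 1 to 4 and 719, 938, 1257 and 1099 in WT. The Khk KO livers lay close together, and WT replicate 1 fell among them while the other 3 WT livers were higher. The means were 703 ± 19.8 and 1003 ± 230.1 (SD, n = 4), so Khk KO held 70.1% of WT, with an exact two-sided permutation p of 0.0571. The log2 fold change in edgeR was -0.48 ± 0.17 (SE) with an adjusted p of 0.0729, and the authors' deposited table gave an adjusted p of 0.0245. Without WT replicate 1 it was -0.65 ± 0.12 (SE), with an edgeR adjusted p of 0.00167. That fit called 4860 liver genes in all, against 2675 with the 8 libraries. The Hfe change was -0.25 ± 0.13 (SE) with the length trend taken out, with an edgeR adjusted p of 0.547.

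Neo1 (ENSMUSG00000032340, chromosome 9, 58874687 to 59036441, minus strand) went the other way in liver, with 389, 429, 358 and 442 normalized counts in Khk KO replicates 1 to 4. The WT livers held 392, 204, 86.2 and 190 normalized counts. WT replicate 1 again lay inside the Khk KO range, and WT replicate 3 was the lowest. Neo1 in WT thus had its highest value in the library with the highest slope on gene length and its lowest value in the library with the lowest slope. The means were 405 ± 38.3 in Khk KO and 218 ± 127 in WT (SD, n = 4), with an exact two-sided permutation p of 0.0857. The log2 fold change was 0.92 ± 0.36 (SE) with an edgeR adjusted p of 0.109, where the authors' deposited table gave an adjusted p of 0.0332. It was 1.33 ± 0.26 (SE) without WT replicate 1, with an edgeR adjusted p of 0.00210. That fit called 4860 liver genes in all, against 2675 with the 8 libraries. The Neo1 change was 0.63 without WT replicate 3, and 0.30 ± 0.23 (SE) with the length trend taken out.

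**Figure D1:**
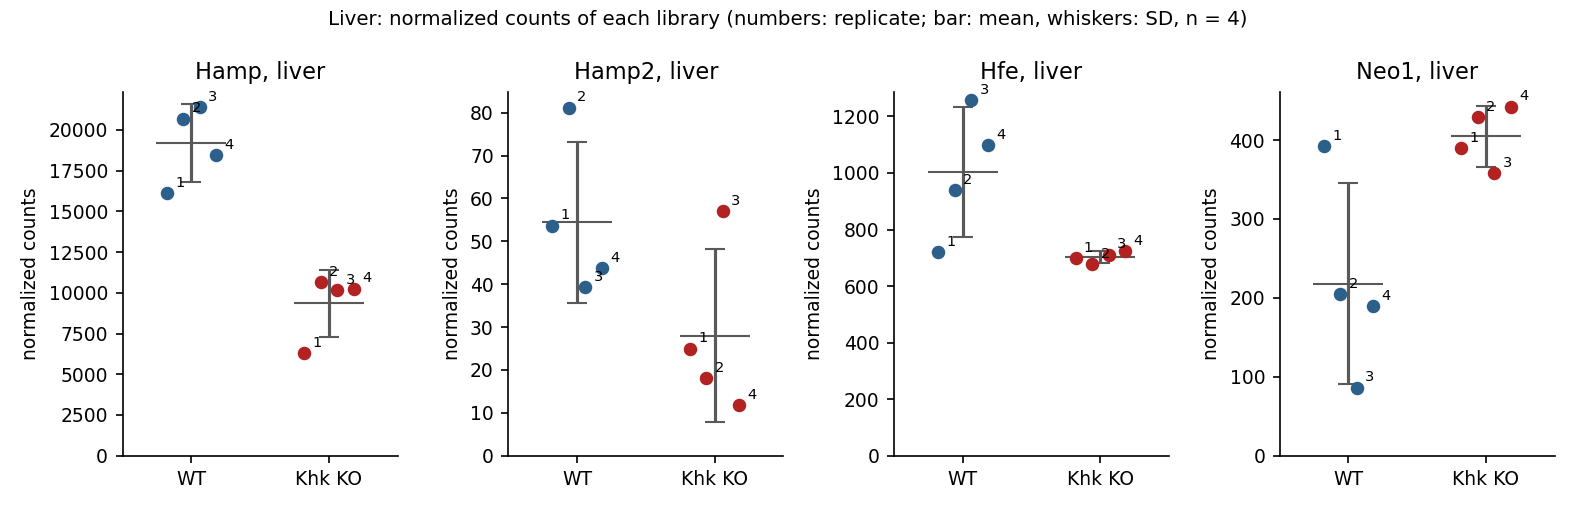
Normalized counts of Hamp, Hamp2, Hfe and Neo1 (vertical axes) in the 4 WT and 4 Khk KO liver libraries, each point a library with its replicate number, the bar the mean and the whiskers the SD. Hamp separates the genotypes, with Khk KO at most 10678 and WT at least 16104, while WT replicate 1 lies among the Khk KO livers for Hfe (719) and Neo1 (392).

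In the intestine, Neo1 was higher in Khk KO in both segments whose tables held it. In jejunum Neo1 held 1471, 1489, 1546 and 1741 normalized counts in Khk KO replicates 1 to 4 and 1153, 1239.9, 1318 and 1264 in WT. Every Khk KO library was above every WT library, as for 56% of the genes in the jejunum table. The means were 1562 ± 124 and 1244 ± 68.5 normalized counts (SD, n = 4). The authors' deposited table called 0.759% of the 9881 genes tested in jejunum (0.536% higher and 0.223% lower in Khk KO), and neither Neo1 (adjusted p 0.188) nor Hamp was among them. The edgeR refit, which called 0.0101% of those genes, gave Neo1 a log2 fold change of 0.32 ± 0.11 (SE) with an adjusted p of 0.237 in its quasi-likelihood test.

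In ileum Neo1 held 1858, 2030.3, 2441 and 2322 normalized counts in Khk KO replicates 1 to 4 and 1563, 1587, 1674 and 1463 in WT. The genotypes did not overlap, as for Smad6 and for 66.8% of the genes in the ileum table. The means were 2163 ± 267 in Khk KO and 1572 ± 86.8 in WT (SD, n = 4). Both members of the ileum table, Neo1 higher and Smad6 lower, passed in the authors' deposited table and in the edgeR refit. The former called 15.6% of the 16034 genes tested there (8.76% higher, 6.86% lower) and the latter 13.9% (7.5% higher, 6.36% lower). The Neo1 rise was 0.46 ± 0.11 (SE) on the log2 scale, with an edgeR adjusted p of 0.0198. It was 0.41 without Khk KO replicate 3 and 0.43 without Khk KO replicate 4, with edgeR adjusted p-values of 0.0663 and 0.0714. Those fits called 1049 and 942 ileum genes in all, against 2221 with the 8 libraries. With the length trend taken out, the Neo1 values turned to -0.046 ± 0.10 (SE) in ileum and -0.072 ± 0.077 (SE) in jejunum, neither past the threshold.

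In WT, Neo1 averaged 2.14 ± 1.21 FPKM in liver, 8.40 ± 0.324 in jejunum and 8.64 ± 0.590 in ileum (SD, n = 4). Jejunum and ileum did not differ beyond their spread, and liver was the lowest, although the organs were normalized separately. The genotype difference in Neo1 was compared between organs with an interaction of organ and genotype in edgeR. Ileum minus liver was -0.42 ± 0.36 (SE) on the log2 scale, with a 95% interval of -1.18 to 0.33. Jejunum minus liver was -0.51 ± 0.39 (SE), with an interval of -1.33 to 0.31, and ileum minus jejunum was 0.15 ± 0.16 (SE), with an interval of -0.19 to 0.50. The adjusted p-values in edgeR were 0.748, 0.524 and 0.998, so no difference between organs was detectable, and the intervals with liver leave room for a difference of 1 log2 unit.

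Smad6 (ENSMUSG00000036867, chromosome 9, 63953076 to 64022059, minus strand), the inhibitor that BMP signals themselves induce, held 338, 366, 440.3 and 290.0 normalized counts in the Khk KO ilea. The WT ilea held 787, 452, 593 and 455. The closest pair was Khk KO replicate 3 and WT replicate 2, and WT replicate 1 was the highest library. The means were 359 ± 62.9 in Khk KO and 572 ± 158 in WT (SD, n = 4), and Khk KO stood at 62.7% of the WT mean, with an exact two-sided permutation p of 0.0286. The log2 fold change was -0.66 ± 0.17 (SE), with an edgeR adjusted p of 0.0313. Left out 1 at a time, Khk KO replicates 1, 2 and 4 and WT replicate 3 raised the edgeR adjusted p to between 0.0637 and 0.0883. Those fits called 663 to 1583 ileum genes in all, against 2221 with the 8 libraries. Scaling by the authors' size factors, and not by TMM, gave -0.67 with an adjusted p of 0.0548 in edgeR. With the length trend taken out it was -0.36 ± 0.16 (SE), with an edgeR adjusted p of 0.459.

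Smad6 is abundant in endothelial cells, so endothelial markers were looked at beside it. The ileum table held 5 of the 19 listed endothelial genes, and their summed level was 1872 to 2046 normalized counts in Khk KO and 1269 to 1578 in WT. This sum holds only genes selected for a genotype difference. Of the 19 listed genes, the authors' deposited table called 2, beside 15.6% of all genes tested in ileum (8.76% higher, 6.86% lower). They were Flt1 (log2 fold change 0.91) and Tek (0.60), receptors of endothelial growth factors, both higher in Khk KO. The other 3 genes in the ileum table were not called. Kdr (0.45) and Lyve1 (0.42) had positive and Sox18 (-0.50) a negative log2 fold change there. The genes with positive values are 2919 to 13504 bases long and Sox18 1620, so these values also go with gene length. Their part in the Smad6 result was not tested. The remaining 14 markers, Pecam1 and Cdh5 among them, were not in the ileum table.

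Hamp in jejunum was at the edge of detection. It had 1, 2, 0 and 1 reads in Khk KO replicates 1 to 4 and 29, 4, 5 and 0 in WT. WT replicate 1 held 29 of the 38 WT reads, and WT replicate 4 held none, as did Khk KO replicate 3. The normalized means were 0.888 ± 0.714 in Khk KO and 10.6 ± 14.7 in WT (SD, n = 4), and 3.32 in WT without replicate 1. The exact two-sided permutation test gave p = 0.143, and the authors had not adjusted the p of this gene. The count filter of the edgeR refit removed it. Without that filter the log2 fold change was -3.29 ± 1.24 (SE), with an edgeR adjusted p of 0.198. On the FPKM scale WT jejunum stood at 1.55 ± 2.18 (SD, n = 4), against 4027 in WT liver, with each organ normalized separately. The interaction of organ and genotype for Hamp, jejunum minus liver, was -2.22 ± 1.04 (SE) in edgeR, with an adjusted p of 0.397. Hamp passed the count filter of that joint fit only through its liver counts. On the jejunum side the value rests on the few reads above, most of them in WT replicate 1, so no difference between organs can be read from it.

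Several genes of liver products were high beside Hamp in that jejunum library. They are in the jejunum table because they differed by genotype on these libraries, to which a high WT replicate 1 can contribute. Liver genes absent from that table have no value here. Hpx, which encodes the haem carrier hemopexin, held 52.5 normalized counts in WT replicate 1, 23.6 times the mean of the other 3 WT jejuna. Saa4, a serum amyloid gene, was 11.0 times and Hp, the haptoglobin gene, 6.43 times as high there as in the other WT jejuna, beside 9.75 times for Hamp. The hepatocyte markers were mixed, with 4.40 times for Cyp2e1, 2.34 times for Apoa1, also made by enterocytes, 1.14 times for Ass1 and 1.10 times for Ttr. The acute-phase gene Lrg1 was at 2.31 times. The part of liver RNA in the Hamp reads of the jejunum was not tested.

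**Figure D2:**
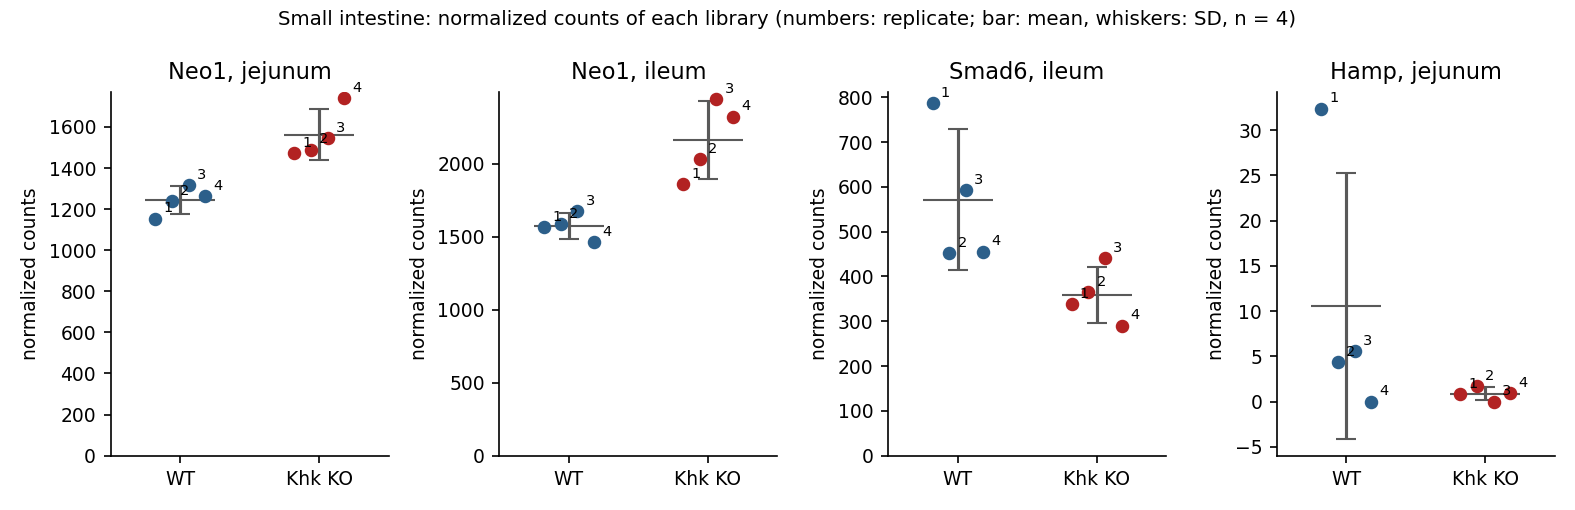
Normalized counts (vertical axes) of Neo1 in jejunum and ileum, Smad6 in ileum and Hamp in jejunum in the 4 WT and 4 Khk KO libraries, each point a library with its replicate number, the bar the mean and the whiskers the SD. The genotypes separate for Neo1 and Smad6, and WT replicate 1 alone, at 32.4 normalized counts, carries most of the Hamp signal in jejunum.

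The length trend is set beside the members in the plot of fold change against gene length. In liver, the called genes that were higher in Khk KO on the hepcidin-control list had a median length of 6185 bases and those lower 2806, beside 7525 and 2305 for all called genes. The 4 members of the liver table followed the same order, with the longest, Neo1, higher and the 3 shorter ones lower. Length and genotype cannot be told apart among these genes, since the slopes of the genotypes do not overlap in any of the 4 organs. The slopes come from genes selected for a genotype difference, so a length trend over all genes was not tested.

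**Figure D3:**
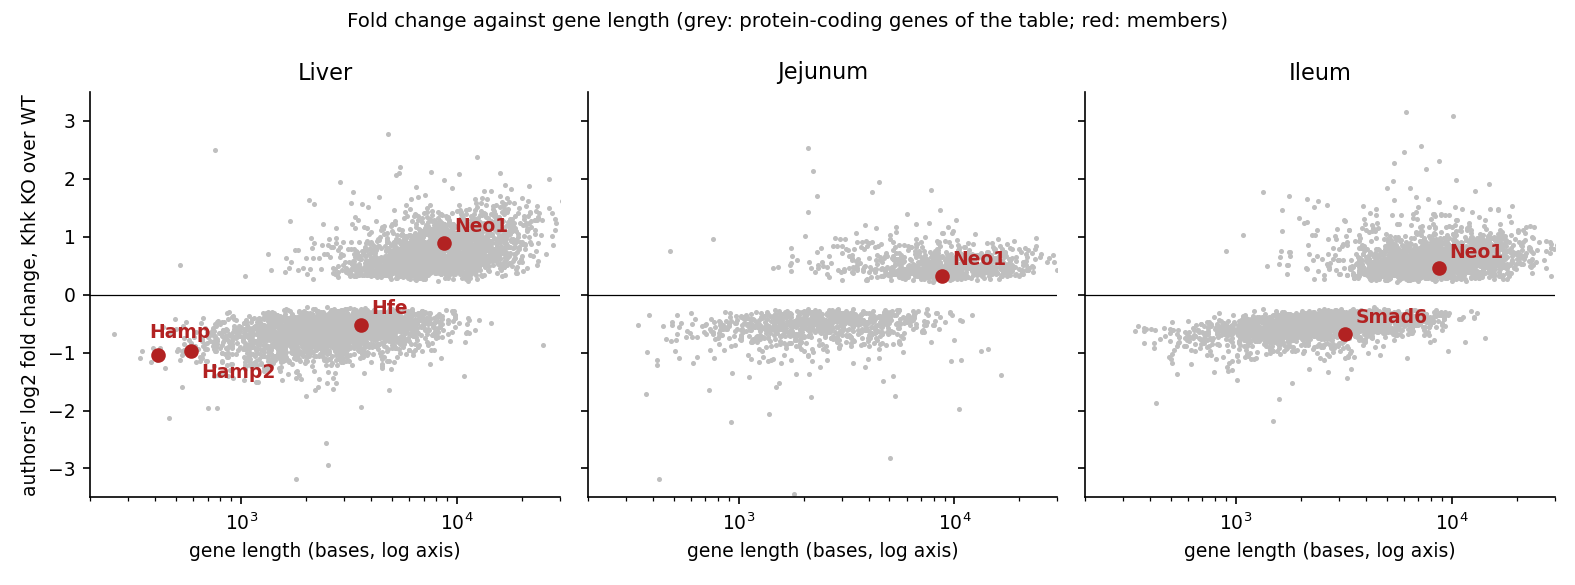
The authors' log2 fold change, Khk KO relative to WT (vertical axis), against gene length in bases (horizontal, log axis) for protein-coding genes averaging 50 normalized counts or more in the liver, jejunum and ileum tables (grey) and the members averaging 10 or more (red). The band around 0 is empty because the tables hold only genes with an unadjusted p under 0.05, and Hamp, at 410 bases, lies at the short end of the liver genes.

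**Figure D4:**
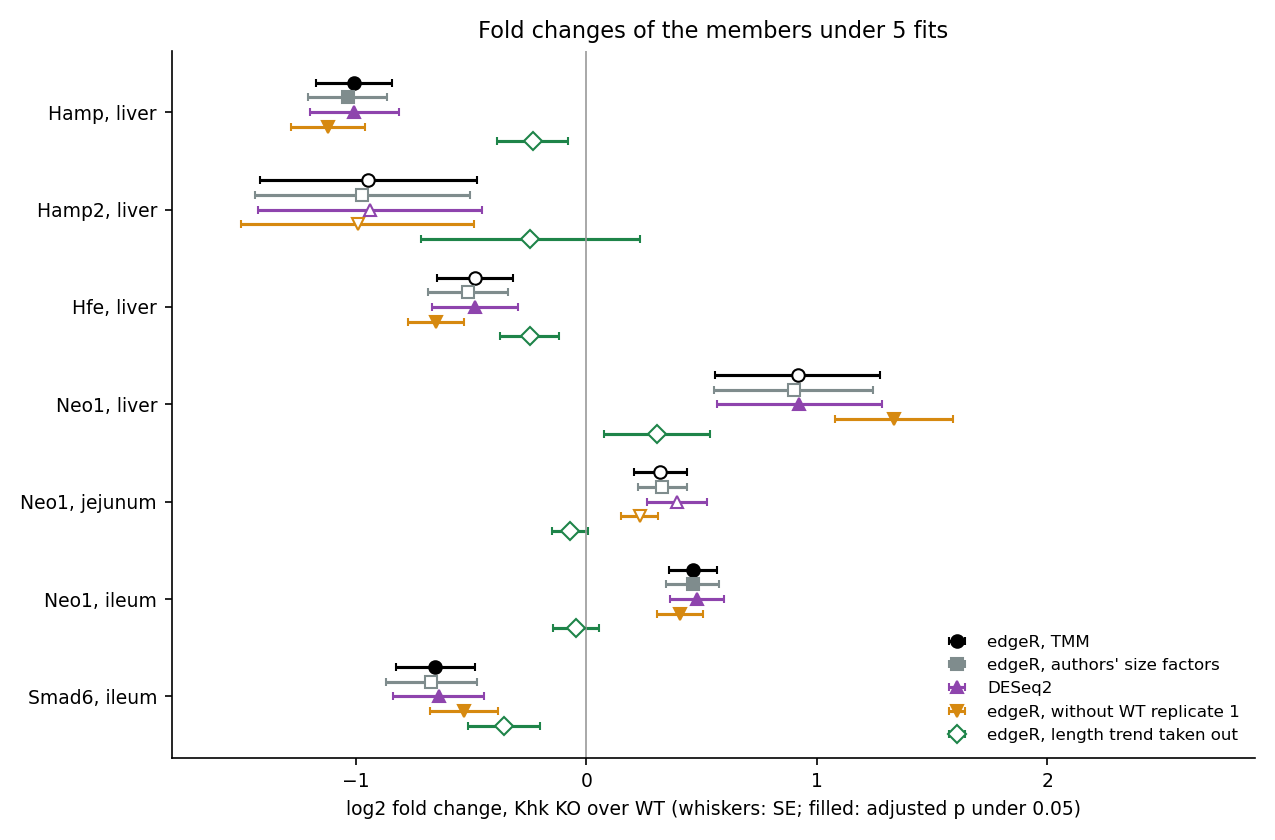
Log2 fold change, Khk KO relative to WT (horizontal axis, whiskers SE), of 7 member and organ pairs under 5 fits, with filled symbols for an adjusted p under 0.05. Every pair moves toward or past 0 with the length trend taken out. The liver changes of Hfe (-0.65) and Neo1 (1.33) pass without WT replicate 1, where 4860 liver genes were called in all.

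The pathway around the members was described with a list of 47 genes of hepcidin control. The liver table held 17 of the 47. Of these, 14 passed in the authors' deposited table, 9 up and 5 down in Khk KO, or 29.8% of the list beside 23.9% of all genes. The edgeR refit called 10 of the 47. Among the called receptors, Bmpr2 (1.09), Acvr2a (0.54) and Acvr2b (0.80), the type II receptors that bind BMP and activin ligands, were all higher on the log2 scale in the authors' deposited table. Smad5 (0.58), which carries the BMP signal to the nucleus, was higher as well. Tfrc (0.83), the transferrin receptor whose protein binds HFE, and Epas1 (0.64), a hypoxia-inducible factor, were also higher there.

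Of the interleukin 6 arm, the authors' deposited table called Il6ra (0.82), the receptor subunit, and the kinase genes Jak1 (0.58) and Jak2 (0.64), all higher in Khk KO liver. The called falls were those of Id3 (-1.34), a transcript that BMP signals induce, and Fkbp1a (-0.67), whose protein binds BMP type I receptors and damps them. Usf1 (-0.71) and Usf2 (-0.39), E-box binding factors, and Creb3l3 (-0.38), a liver transcription factor, were lower too in the authors' deposited table. Il6st, the signalling subunit of the interleukin 6 receptor, had a value of 0.49 and was not called. With the length trend taken out, the edgeR log2 fold changes of Bmpr2, Jak1, Smad5 and Il6ra were 0.096, 0.037, 0.019 and 0.15, none past the threshold. Jak2 (0.49), Epas1 (0.44), Tfrc (0.41) and Acvr2a (0.25) kept more of their rise in that fit, also short of the threshold. Acvr2b, at 0.83 in the main edgeR fit, was larger in that fit at 0.95, likewise short of the threshold. Usf1 was at -0.24 there, while Usf2 (0.095) and Creb3l3 (0.018) changed sign, again short of the threshold. The other 30 listed genes have no liver value here.

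Id3 averaged 370.5 ± 111 normalized counts in Khk KO liver and 937 ± 310.4 in WT (SD, n = 4), without overlap. Its log2 fold change was -1.31 ± 0.27 (SE), with an edgeR adjusted p of 0.0197, and -0.69 ± 0.23 (SE) with the length trend taken out, with an edgeR adjusted p of 0.136. In that fit 2 of the 47 listed genes passed in liver, where 786 of the 18225 genes tested were called in all. They were Fkbp1a at -0.49 and Smad4, the partner of all receptor SMADs, at 0.55. Smad4 had not been called in liver by the authors' deposited table (adjusted p 0.0774). The edgeR count of 10 moved with the calls over all genes, which were 2675 with the 8 libraries. It was 16 without WT replicate 1 (4860 genes called in all), 7 without WT replicate 3 (2169) and 1 without Khk KO replicate 3 (689). It was 0 without any one of Khk KO replicates 1, 2 and 4 and WT replicates 2 and 4, where 9 to 533 genes were called in all. In each of these fits 14 to 16 listed genes had an unadjusted p under 0.05 in edgeR. This was largely set beforehand, since the liver table admitted only genes under that value on these libraries.

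Usf2 is also the nearest gene to Hamp on its upper side in the liver table, 1216 bases away, and Hamp2 lies 17687 bases below Hamp. Usf2 averaged 706 ± 47.3 normalized counts in Khk KO liver and 922 ± 86.6 in WT (SD, n = 4). Hfe lies between Hist1h2bc and Hist1h1c, histone genes at 9126 and 27954 bases, both lower in Khk KO in the authors' deposited table, by -0.82 and -0.89 on the log2 scale.

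The ileum table held 16 of the 47, and 10 passed in the authors' deposited table, or 21.3% of the list beside 15.6% of all genes. The 9 higher genes were Bmp5 (1.11), Socs3 (1.01), Slc40a1 (0.70), Acvr2a (0.64), Smad4 (0.55), Bmpr2 (0.53), Il6st (0.52), Bmpr1a (0.44) and Jak2 (0.44) in the authors' deposited table. They include a BMP ligand, its receptors, the ferroportin gene Slc40a1 and Socs3, the feedback inhibitor of STAT3. Socs3 averaged 2160.3 ± 1309 normalized counts in Khk KO and 1070.3 ± 120.3 in WT (SD, n = 4), its groups overlapped, and its adjusted p was 0.0637 in edgeR. Usf2 (-0.41) was the called gene that was lower. The edgeR refit called 11, 8 higher and 3 lower. With the length trend taken out it called 2, Bmp5 at 1.22 and Smad4 at 0.74, where 476 of the 16034 genes tested were called in all. The count of 11 became 2 to 7 without any one of Khk KO replicates 1 to 4 and WT replicates 2 and 3, where the genes called in all went from 2221 to between 663 and 1583. In those fits 14 to 16 listed genes had an unadjusted p under 0.05 in edgeR. The entry rule of the ileum table largely set this beforehand.

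Smad4 was higher in Khk KO without overlap in the 3 organs whose tables held it, where 65% of the genes in the liver, 66.8% in the ileum and 45.9% in the duodenum table did not overlap. It averaged 695 ± 30.8 normalized counts in Khk KO and 547 ± 76.3 in WT liver, and 2058 ± 164 and 1403 ± 62.9 in ileum (SD, n = 4). In duodenum the means were 1871 ± 120.1 and 1472 ± 232 (SD, n = 4), with an adjusted p of 0.485 in the authors' deposited table. None of the list was called in duodenum, whose table held 2 of the 47 and where the authors called 0.224% of genes (0.128% higher, 0.0961% lower) and edgeR 0.0064%, a lower one. The jejunum table held 6 of the 47, of which 0 were called. At an unadjusted p under 0.05 edgeR passed 1 of them in duodenum and 4 in jejunum, and DESeq2 called 0 in both. The entry rule of the tables bears on these unadjusted counts as well. Il6, the cytokine that induces Hamp in inflammation, averaged 4.81 ± 3.16 normalized counts in Khk KO jejunum and had no read in the 4 WT jejuna. Its p was not adjusted by the authors, and it is named here after its values were seen.

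**Figure D5:**
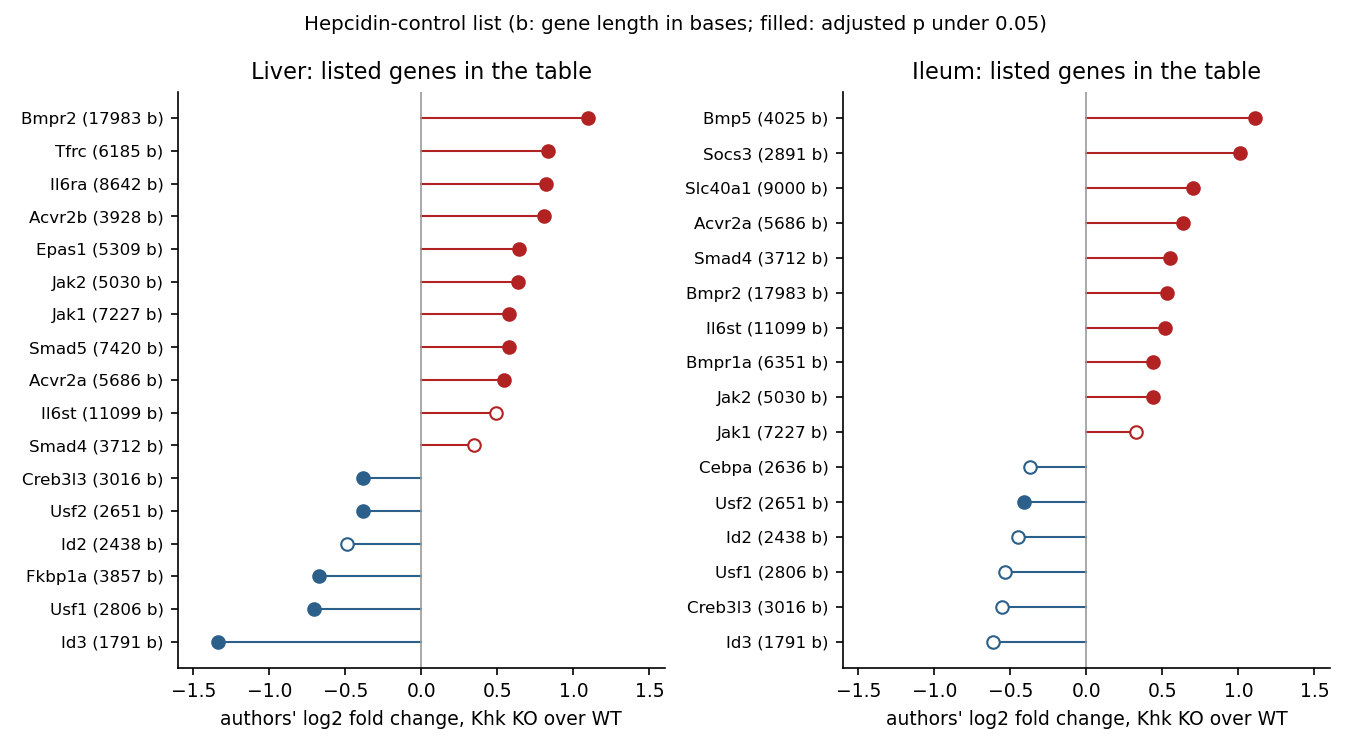
The authors' log2 fold change, Khk KO relative to WT (horizontal axis), for the genes of the hepcidin-control list in the liver (17 genes) and ileum (16 genes) tables, with gene length in bases beside each name and filled symbols for an adjusted p under 0.05. Bmpr2 (1.09) and Id3 (-1.34) mark the ends in liver, and Bmp5 (1.11) leads in ileum.

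The acute-phase genes, which interleukin 6 and STAT3 drive in hepatocytes as they drive Hamp, were mostly lower in the same livers. The liver table held 14 of 22, and 10 passed in the authors' deposited table, 9 down and 1 up, beside 11.4% of all genes called lower and 12.5% called higher. The 6 most abundant were C3 (0.53), the complement component that was the one higher, and Hpx (-1.26), Hp (-0.82), Fgb (-0.40), Fgg (-0.61) and Itih4 (-0.43) in the authors' deposited table. Saa1 (-2.56) and Saa2 (-2.93), chosen for mention after their values were seen, had the largest falls of the list in that table. Saa1 and Saa2 are near-copies that can share reads. The edgeR refit called 6 of the 14, all lower, where it called 2675 genes in all. It called 11 without WT replicate 1, of 4860 in all, and 1 with the length trend taken out, of 786 in all. In that last fit Saa1 was at -1.99 and Saa2 at -2.36 on the log2 scale, with edgeR adjusted p-values of 0.0716 and 0.0530. The 1 called was Cp, the ferroxidase ceruloplasmin, at -0.50, where the fit without that step had given 0.29.

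The listed cell markers that the liver table held moved with genotype, as entry to the table required. The authors called 11.4% of all liver genes lower and 12.5% higher, and the sums hold only genes so selected. The erythroid list had 5 of 8 genes in the table, all called lower in the authors' deposited table, with a summed level of 2967 to 3515 normalized counts in Khk KO and 4584 to 10959 in WT. The macrophage list had 5 of 10 genes, 4 called lower, Clec4f (-1.22) of Kupffer cells among them, with 2937 to 4055 against 3832 to 11178 normalized counts. The hepatocyte list, which shares Fgb with the acute-phase list, had 8 of 10 genes, 6 called lower and 1 higher, with 381357 to 434905 against 425435 to 620564 normalized counts. The lowest WT library in all 3 sums was replicate 1. Of the 19 endothelial genes 7 were in the table, 4 called higher (4712 to 13504 bases long) and 3 lower (1416 to 3581 bases). The called erythroid genes have 667 to 2403 bases and the called macrophage genes 1040 to 2471. The lower hepatocyte genes have 1014 to 3810 bases and Tat, the higher one, 2405. The part of these shifts in the Hamp and Hfe values was not tested.

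Genes whose libraries followed a member within both genotypes were ranked by Pearson's r of log2 deviations from the genotype means over the 8 libraries of an organ. In liver, Hfe was followed most closely by Ces1d (r = 0.995), Fbxo6 (0.991) and Serpinf2 (0.988), and Neo1 by Lamc1 (0.997), Mtss1 (0.996) and Zcchc14 (0.995). The like genes of Neo1 were 7780 to 11345 bases long in liver. In ileum they were Btnl6 (0.950), Lin54 (0.939) and Ppp2r5d (0.914), of 1751, 5820 and 3402 bases, and in jejunum Zfp608 (0.961), Aff1 (0.945) and Rabgap1l (0.945). For Hamp in liver they were C1rl (0.965), mt-Nd3 (0.938) and Mipep (0.932), and for Hamp2 Dhrs3 (0.952), Apon (0.944) and Agpat2 (0.919). In ileum, Smad6 was followed by Gatd1 (0.979), Dusp28 (0.970) and Isoc2b (0.966). These are the top 3 of 1618 to 4567 genes each, share library and scaling, and are a description.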

How the data were processed

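The authors deposited one table per organ. Reads were aligned with HISAT2 2.0.5 to GRCm38 (mm10), per the submitters' processing notes, while the counting tool and the test are not given in the sources used here. The columns are, per the file headers, raw counts, a normalized signal (each library's counts over its own size factor), FPKM, the authors' log2 fold change, and their p-value with its adjusted value. Each deposited table stops at an unadjusted p under 0.05. Ranks of the p-values showed adjustment over 18225 liver, 15615 duodenum, 9881 jejunum and 16034 ileum genes, and an adjusted value of exactly 1 was read as not adjusted.

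Counts were refitted per organ with edgeR 4.0.16 in R 4.3.3 (library totals implied by FPKM, TMM scaling, filterByExpr, quasi-likelihood F test), adjusted over those numbers of genes at a threshold of 0.05. SE is the log2 fold change over the square root of F. The refit saw only genes selected on all 8 libraries. Alternatives were the authors' size factors, DESeq2 1.42.0, no count filter, a replicate block, adjustment over the table alone, each library left out, and removal of each library's lowess trend (span 0.5) of log2(normalized count + 1) on log2 gene length, which also removes any genotype effect that follows length. Like-pattern genes were protein coding with a mean of at least 100 normalized counts. Named genes are the members, every called gene of the hepcidin-control list, the 6 most abundant acute-phase genes, the nearest genes within 100 kb and the top 3 of like pattern, beside genes named where their values bear on a member. The members and lists were chosen with earlier results of these data known. Annotation overlaps are from GENCODE M21, promoters from RefSeq (GRCm38.p6). Python 3.11.15 and matplotlib 3.10.9 were used for the rest.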

Additional observations from a re-analysis of the deposited data

Results flagged for a closer look

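Of 16 groups of 4 libraries examined for the members, 1 held a library far from the rest by Dixon's test at its 95% critical value, which chance alone gives in about 1 of 20 groups. It was the Khk KO livers for Hamp, where replicate 1 held 6297 normalized counts and the gap to the next library was 0.885 of the range of the group. Without that library the log2 fold change of Hamp was -0.90, with an adjusted p of 0.0375 in edgeR's quasi-likelihood test.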

How the results depend on the processing

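Of 91 refits of the 7 member results that could be fitted, 89 kept the direction. This was largely set beforehand, since the members entered the tables by an unadjusted p under 0.05 on these same libraries. The 2 reversals came with the length trend taken out, for Neo1 in ileum (-0.046) and jejunum (-0.072). In that fit Hamp in liver (-0.23) and Smad6 in ileum (-0.36) lost their call. The list counts there were 2 in liver and 2 in ileum, of 786 and 476 genes called in all. The authors' size factors gave Smad6 -0.67, no longer past the threshold, and an ileum list count of 6, of 1585 genes called in all. DESeq2 made calls of Hfe (-0.49) and Neo1 (0.92) in liver, as did adjustment over the table alone for Hfe (-0.48), Neo1 in liver (0.92) and Neo1 in jejunum (0.32). DESeq2 called 4411 liver genes in all. Adjustment over the table alone called 5198 of the 5734 genes fitted in liver and 1175 of 2043 in jejunum. The main fit called 2675 and 1. That adjustment is too lenient, since entry to the tables required an unadjusted p under 0.05. Leaving out 1 library gave log2 fold changes of -1.12 to -0.90 for Hamp, -1.58 to -0.72 for Hamp2, -0.65 to -0.38 for Hfe and 0.63 to 1.33 for Neo1 in liver. They were 0.23 to 0.36 for Neo1 in jejunum, 0.41 to 0.52 for Neo1 and -0.75 to -0.53 for Smad6 in ileum, and list counts of 0 to 16 in liver and 2 to 12 in ileum, where 9 to 4860 and 663 to 2912 genes were called in all. These fits have fewer samples, and the cause of the other changes was not tested. Same-numbered libraries share only a number, with correlations of deviations from -0.29 to 0.31, and 0 to 2 of 4 Khk KO libraries per organ correlated best with their own number. With the replicate block the ileum list count was 5 and the liver one 7, of 1202 and 2156 genes called in all. Hamp was -1.03, Neo1 in ileum 0.46 and Smad6 -0.65 there, and no member call changed. Depth limits Hamp in jejunum (4 reads in Khk KO and 38 in WT) and Hamp2.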
